A study of Mus musculus with 6 samples.

Results

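The CCN family of matricellular proteins was examined in bulk RNA-seq of whole thoracic aortas from 12-week-old male mice. Its members were the 5 genes Ccn1 (formerly Cyr61), Ccn2 (Ctgf), Ccn3 (Nov), Ccn4 (Wisp1) and Ccn5 (Wisp2), found by gene identifier among the 52636 genes of the count table. All 5 were measured well enough to receive an adjusted p-value, as did 17070 genes in all. The comparison asks how these transcripts respond when TGF-β signaling is briefly disrupted in the smooth muscle cells (SMCs) of the adult aorta. The WT group was 4 untreated C57BL/6J mice. The KO group was 2 mice homozygous for loxP-flanked Tgfbr1 (Tgfbr1f/f) and Tgfbr2 (Tgfbr2f/f) that carried Myh11-CreERT2 and the mT/mG reporter, which marks cells with Cre recombination, on a B6 background. These mice, called Tgfbr1/2iSMCKO, were given tamoxifen at 11 weeks of age, 2 mg daily over 5 days. The Cre is driven by Myh11 from a transgene on the Y chromosome, so deletion is directed to SMCs and the other cells of the wall keep both receptors. The WT mice lacked the loxP-flanked alleles, the Cre, the reporter and the tamoxifen, and these differences cannot be told apart in this design. Libraries are named by the number at the end of their column code in the count table. Codes were matched to groups by inference, those numbered up to 4 being read as WT and those numbered up to 2 as KO.

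CCN proteins are secreted modular molecules that sit in the extracellular matrix (ECM) and signal through integrins, proteoglycans and LRP receptors rather than building fibers. Ccn1 and Ccn2 are textbook targets of the Hippo pathway effectors YAP and TAZ, Ccn2 is a classic TGF-β-induced gene, and Ccn1 was first described as a growth factor-inducible immediate early gene. Ccn3 and Ccn5 are often described as counterweights to Ccn2, Ccn5 lacks the C-terminal cysteine knot module of the others, and Ccn4 was first described as a Wnt-induced gene.

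In the libraries labelled KO, Ccn1 and Ccn2 transcripts fell by more than 2-fold, Ccn4 rose by more than 2-fold from a low level, Ccn3 rose by a smaller amount, and Ccn5 did not pass the test. Of the 5 members, 4 had a DESeq2 adjusted p-value under 0.05, 2 lower and 2 higher, where 10.4% of all tested genes passed (4.69% lower and 5.71% higher). By edgeR 3 of the 5 passed, without Ccn3, whose call was lost in 11 of 17 alternative fits. With a change above 2-fold as well, 2 members were called lower and 1 higher, beside 2.1% and 3.54% of all genes. These folds are estimates: none of the members passed when DESeq2 tested against a 2-fold change in place of no change (adjusted p-value 1 for each), and the 95% interval of Ccn1, for example, ran from -1.99 to -0.85 on the log2 scale. The sixth family gene, Ccn6 (Wisp3), had 0 counts in all 6 libraries, which allows up to 3 counts per library.

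The 6 libraries held 19650983 to 28860598 estimated counts. The mitochondrial share of counts was 11.7% in KO-2, above KO-1 (3.38%) and the WT libraries (2.62% to 4.44%). The whole-gene counts of the targeted genes, Tgfbr1 (0.20 on the log2 scale, DESeq2 adjusted p-value 0.63) and Tgfbr2 (-0.09, 0.838), did not pass and so did not check the labels. Such counts can include exons outside the deleted part and RNA of cells that keep the genes. The part of either in these values was not tested. The 9 smooth muscle markers of the fixed list, none of them at 0, had summed normalised counts of 968755 to 1139709 in WT and of 938189 and 1113847 in KO-1 and KO-2. Cardiac muscle markers summed to 2946 to 4172 in WT, 27159 in KO-1 and 4087 in KO-2, and 4 of 7 were higher. White adipocyte markers summed to 2105 to 3743 in WT, 3543 in KO-1 and 31701 in KO-2, and 2 of 6 were higher. Brown adipocyte markers summed to 467 to 636 in WT, 819 in KO-1 and 10611 in KO-2, with 3 of 5 higher. Red blood cell markers summed to 859 to 5990 in WT, 11076 in KO-1 and 61684 in KO-2, with 4 of 5 higher. KO-1 and KO-2 thus differed from each other in these other tissues, and each member is given with single libraries left out. In whole tissue, a change in the number of cells of a type and a change in RNA per cell cannot be told apart.

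Levels of different genes were compared per kb of exon, as normalised counts (counts divided by the DESeq2 size factor of the library) per kb of the gene's merged exons. In WT aorta Ccn2 had the highest level of the family at 14015 ± 3085 per kb (SD, n = 4), which placed it 45th among all genes. Ccn1 at 8791 ± 2738 and Ccn3 at 8785 ± 1380 followed, at ranks 75 and 76, and their ranges overlapped each other. The range of Ccn1 also overlapped that of Ccn2, which was the higher of the pair in 3 of 4 WT libraries. Ccn5 stood at 2517 ± 530 per kb, below Ccn3 in each WT library with no overlap of ranges. Ccn4, at 39.2 ± 7.81 per kb, ranked 10829th and lay far below the others.

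In the libraries labelled KO the order was different. Ccn3 led at 12573 ± 286 per kb (SD, n = 2), rank 46, and Ccn2 followed at 5761 ± 1622, rank 110, without overlap. Ccn5 stood at 3649 ± 1544 and Ccn1 at 3279 ± 1356, and neighbouring ranges among Ccn2, Ccn5 and Ccn1 overlapped. Ccn4 remained the lowest at 109 ± 1.20 per kb. Ccn2 was thus the highest member in the WT mean and Ccn3 in both KO libraries, whereas among the WT libraries Ccn3 exceeded Ccn2 in WT-3 alone.

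**Figure D1:**
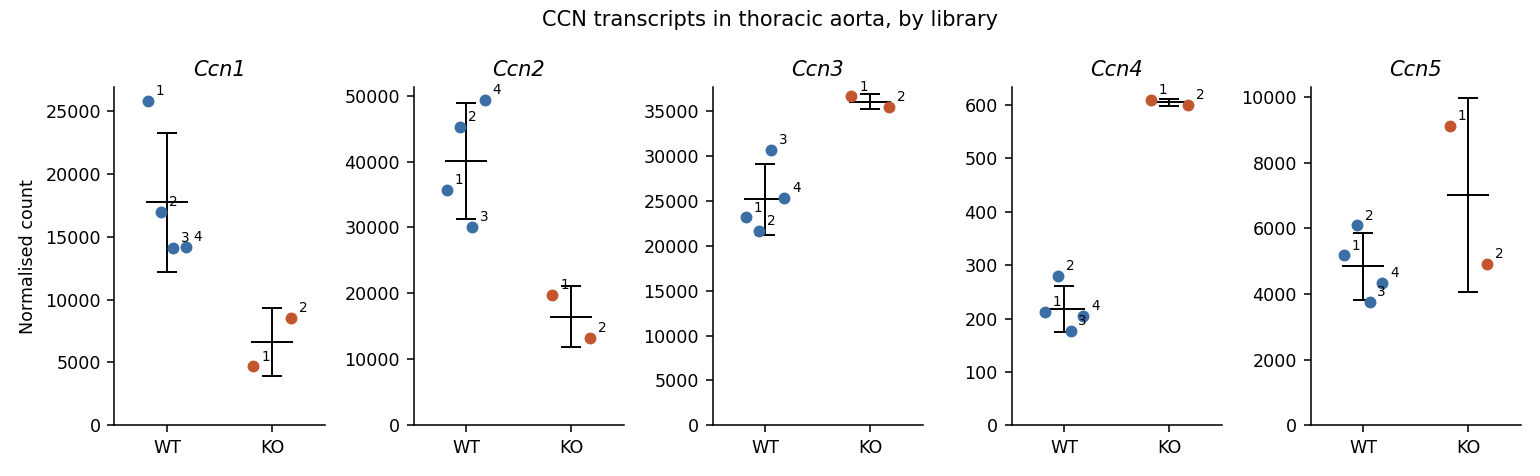
Normalised counts (vertical axes, starting at 0, different for each gene) of the 5 CCN transcripts in the 4 WT libraries (blue) and the 2 libraries labelled KO (orange), with the library number beside each point and lines at the mean and 1 SD to either side. Both KO points lie below the WT points for Ccn1 and Ccn2 and above them for Ccn3 and Ccn4, and for Ccn5 the KO-2 point lies within the WT points.

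Ccn1 (ENSMUSG00000028195.4) is an intron-containing gene of 3006 bp on the minus strand of chromosome 3, from 145646976 to 145649981 in GRCm38. Its normalised counts were 25795, 16957, 14084 and 14158 in the WT libraries in order, and 4685 in KO-1 and 8556 in KO-2. Every KO value lay below every WT value, WT-1 stood highest, and KO-1 was the lowest of all. The WT mean of 17748 ± 5529 (SD, n = 4) became 6620 ± 2738 (SD, n = 2), a 2.68-fold lower level. The log2 fold change was -1.42 (SE 0.29) (DESeq2 adjusted p-value 4.99e-05, edgeR adjusted p-value 0.0487). Against the WT mean, the log2 change was -1.92 in KO-1 and -1.05 in KO-2. Ccn1 passed whichever library was left out, with log2 fold changes from -1.91 (without KO-2) to -1.05 (without KO-1) and a largest adjusted p-value of 0.0153.

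Ccn1 was the only member found in the RefSeq promoter table (1 of 5), so its promoter is the one shown. Its level also varied most between the WT libraries. The window runs from 250 bases before to 50 bases after the start of transcription on the minus strand, at chr3:145649936-145650235 in GRCm38.p6, with a GC content of 57.0%. Capitals mark, from left to right, CATTCC (the core letters of the motif of the YAP partners TEAD, at -103 to -98), CGTCA (the cyclic AMP response element core TGACG read on the other strand, at -58 to -54) and TATAAA (the letters of a common core promoter element, the TATA box, at -25 to -20), with positions counted from the start.
Ccn1: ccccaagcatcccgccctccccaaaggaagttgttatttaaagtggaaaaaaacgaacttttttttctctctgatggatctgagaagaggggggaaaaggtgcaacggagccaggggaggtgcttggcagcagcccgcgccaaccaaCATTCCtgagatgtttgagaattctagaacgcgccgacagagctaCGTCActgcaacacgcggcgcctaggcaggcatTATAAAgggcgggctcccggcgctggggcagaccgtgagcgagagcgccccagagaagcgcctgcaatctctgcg
Both strands were searched. CATTCC occurred in 14.7% of 32851 promoters of this length, TGACG in 20.8% and TATAAA in 13.6%, so each is a common match and not a site shown to be bound. The letters CAGACA, used for SMAD binding, occurred in 21.0% of promoters and TGANTCA, used for AP-1, in 7.81%, and the CArG box in 1.63%. These 3 had no match in the window of Ccn1.

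Ccn2 (ENSMUSG00000019997.11) lies on the plus strand of chromosome 10, from 24595442 to 24598683. Its normalised counts were 35695, 45277, 30033 and 49383 in the WT libraries in order, 19763 in KO-1 and 13201 in KO-2. The groups did not overlap, and here KO-2 was the lower of the KO libraries, the opposite of Ccn1. The mean went from 40097 ± 8827 (SD, n = 4) to 16482 ± 4640 (SD, n = 2), 2.43-fold lower. The log2 fold change was -1.28 (SE 0.24) (DESeq2 adjusted p-value 7.44e-06, edgeR adjusted p-value 0.0289), and it stayed between -1.60 and -1.01 when single libraries were left out. An antisense transcript, Gm15270, overlaps Ccn2 and the sources used here do not state whether counting used strand. Gm15270 had 205 ± 37.8 normalised counts in WT and 167 ± 42.0 in KO, small beside those of Ccn2.

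Ccn3 (ENSMUSG00000037362.8) lies on the plus strand of chromosome 15, from 54745702 to 54754039. Its normalised counts were 23162, 21619, 30677 and 25359 in the WT libraries in order, and 36651 and 35491 in KO-1 and KO-2. Both KO values exceeded the highest WT value, that of WT-3. The log2 fold change was 0.52 (SE 0.18) (1.43-fold, DESeq2 adjusted p-value 0.0483). This call stood at the threshold: edgeR gave an adjusted p-value of 0.106, and the call was lost in 11 of 17 alternative fits. Leaving out WT-1, WT-2, WT-4, KO-1 or KO-2 gave log2 fold changes of 0.48, 0.45, 0.52, 0.50 and 0.55 with DESeq2 adjusted p-values of 0.127, 0.15, 0.0899, 0.127 and 0.139. The direction was higher in each of these fits.

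Ccn4 (ENSMUSG00000005124.9) lies 12.1 Mb further along the same chromosome and strand, from 66891320 to 66923201. Its normalised counts were 212, 279, 177 and 205 in the WT libraries in order, and 609 and 600 in KO-1 and KO-2. The KO libraries lay close together and above the highest WT library, WT-2. Its log2 fold change of 1.47 (SE 0.25) was the largest increase among the members (2.77-fold, DESeq2 adjusted p-value 2.89e-07, edgeR adjusted p-value 0.00848). It ranged from 1.38 to 1.61 without single libraries, with a largest adjusted p-value of 0.000221.

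Ccn5 (ENSMUSG00000027656.7) lies on the plus strand of chromosome 2, from 163820861 to 163833146. Its normalised counts were 5179, 6094, 3749 and 4348 in the WT libraries in order, 9121 in KO-1 and 4920 in KO-2. The groups overlapped: KO-1 exceeded all WT libraries and KO-2 lay within them. The log2 fold change of 0.54 (SE 0.27) had a DESeq2 adjusted p-value of 0.212 and a 95% interval of 0.01 to 1.06. The value rested on KO-1, being 0.92 (DESeq2 adjusted p-value 0.0153) without KO-2 and 0.03 without KO-1.

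**Figure D2:**
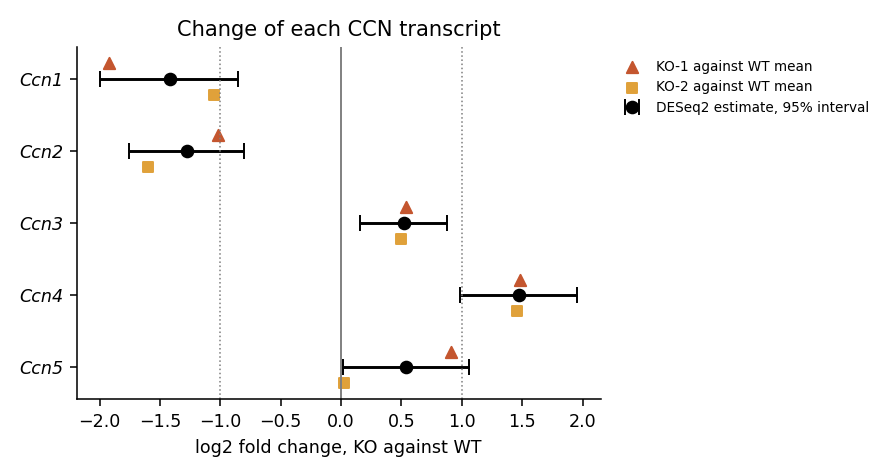
Log2 fold change of each CCN transcript in KO against WT (horizontal axis), with black points for the DESeq2 estimate and its 95% interval, triangles for KO-1 and squares for KO-2 against the WT mean, and dotted lines at 2-fold. KO-1 and KO-2 lie close together for Ccn3 and Ccn4 and apart for Ccn1, Ccn2 and Ccn5.

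The KO libraries lay outside the WT range on the same side for 4 of 5 members, whereas 34.3% of all tested genes did so. For Ccn3 and Ccn4 the 2 KO libraries gave nearly equal changes, 0.54 and 0.49 for Ccn3 and 1.48 and 1.46 for Ccn4. The KO coefficient of variation of Ccn4, 1.11%, was below its counting error of up to 4.53%. For Ccn1 they were -1.92 and -1.05, for Ccn2 -1.02 and -1.60, and for Ccn5 0.91 and 0.02. KO-1 therefore had the lower Ccn1 and the higher Ccn2 and Ccn5 of the pair. Between the WT libraries the coefficient of variation was 31.1% for Ccn1 and smaller for the other members, down to 15.7% for Ccn3.

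Ratios between members within a library do not depend on how libraries were scaled to each other. With 4 libraries against 2, an exact two-sided permutation test has 15 splits and cannot go below p = 0.0667, and 10 pairs were compared. The ratio of Ccn1 to Ccn2 differed by -0.16 on the log2 scale between KO and WT (exact permutation p = 0.8), its groups overlapping, and its sign turned without WT-1 or KO-1. The ratio of Ccn2 to Ccn3 was 0.62, 1.07, -0.03 and 0.96 in the WT libraries in order and -0.89 and -1.43 in KO-1 and KO-2. It was higher in each WT library than in either KO library, a log2 difference of -1.81 (exact permutation p = 0.0667, adjusted 0.0952). The difference was -2.77 for Ccn2 to Ccn4 and -2.93 for Ccn1 to Ccn4, with the same p. For the ratios of Ccn1 and Ccn2 to Ccn3 or to Ccn5 it ran from -1.97 to -1.78, without overlap. The log2 ratio of Ccn4 to Ccn5 was higher in KO, -3.90 and -3.04 against -4.61 to -4.40 in WT (exact permutation p = 0.0667). That of Ccn3 to Ccn4 differed by -0.96 (exact permutation p = 0.133) and that of Ccn3 to Ccn5 by 0.04 (exact permutation p = 1). In 8 of 10 pairs the groups did not overlap, but no pair could pass 0.05 in this design. The 10 ratios are built from the same 5 genes and are not separate results. Of single tested genes, 34.3% had both KO libraries outside the WT range, and the share among ratios of other genes was not counted.

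**Figure D3:**
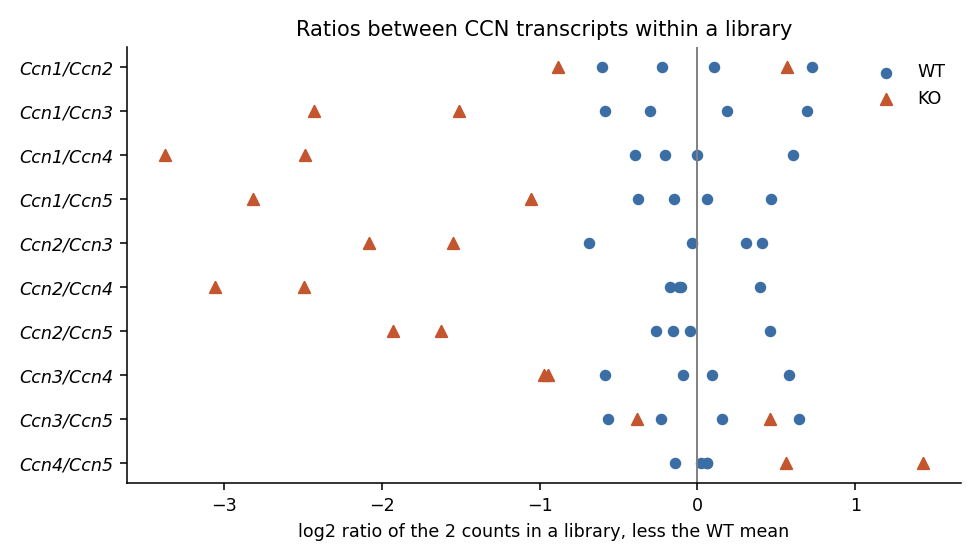
Log2 ratio of the counts of each pair of CCN transcripts within a library, less the WT mean of that pair (horizontal axis), for WT libraries (circles) and KO libraries (triangles). The KO libraries lie outside the WT points in 8 of 10 pairs, all but Ccn1/Ccn2 and Ccn3/Ccn5. The 10 pairs are built from the same 5 genes and are not separate results.

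As shares of the summed level of the 5 members per kb, Ccn2 went from 40.9% ± 7.24 (SD, n = 4) in WT to 22.5% ± 4.53 (SD, n = 2) in KO and Ccn1 from 25.6% ± 6.80 to 13.2% ± 6.43. Ccn3 went from 26.1% ± 6.42 to 49.7% ± 2.98, and Ccn5 from 7.34% ± 1.24 to 14.2% ± 4.91. Ccn4 made up 0.115% ± 0.0193 in WT and 0.429% ± 0.0308 in KO. Ccn1 and Ccn2 together made up the larger part of the pool in every WT library, and Ccn3 alone made up between 47.6% and 51.8% of it in the KO libraries. The summed level was 34147 ± 2704 per kb in WT and 25370 ± 2097 in KO, without overlap.

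**Figure D4:**
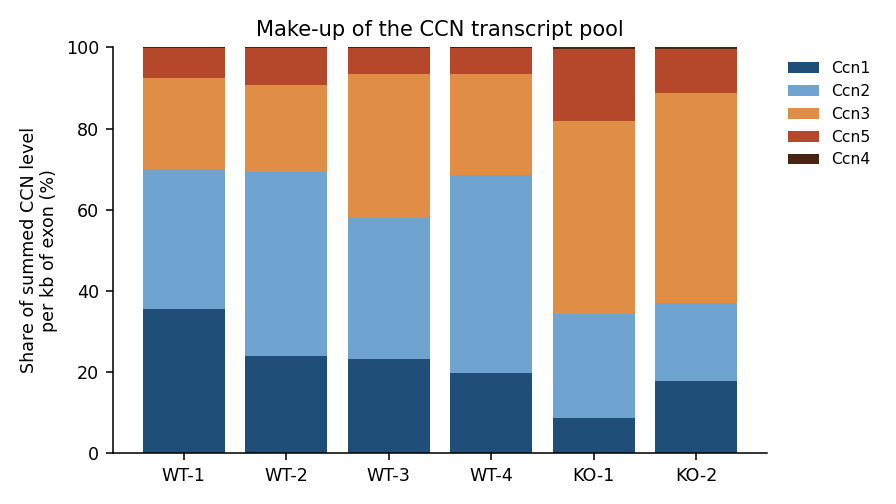
Share of each CCN transcript in the summed level of the family per kb of exon (vertical axis, percent) in each library. The shares of Ccn1 and Ccn2 are smaller and that of Ccn3 larger in KO-1 and KO-2 than in each WT library.

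Other genes of the pathways around the family were read from fixed lists. Each is set beside the median log2 fold change of 0.02 over the genes whose mean normalised count reached 10. Of all tested genes, 10.4% passed, 4.69% lower and 5.71% higher. Of 16 TGF-β response genes other than the CCN members, 7 were lower, 1 was higher and 8 did not pass, with a median of -0.43. By edgeR 6 of the 16 passed, and 2 did in the test against a 2-fold change. Pmepa1, a membrane regulator of SMAD signaling, fell from 17316 ± 1921 (SD, n = 4) to 6326 ± 795 (SD, n = 2) normalised counts (log2 fold change -1.45, DESeq2 adjusted p-value 5.76e-14). The oxidase Nox4 (-1.42) and fibronectin, Fn1 (-0.75), were lower as well. Thbs1, the thrombospondin that shares a repeat type with CCN proteins, was the exception at 2.60 (DESeq2 adjusted p-value 2.52e-12). The feedback gene Smad7, named after its values were seen, stood at -0.13 (DESeq2 adjusted p-value 0.756).

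Of 20 YAP/TAZ target genes other than Ccn1 and Ccn2, 1 was lower, 1 was higher and 18 did not pass, with a median of -0.04. On the log2 scale Gadd45b, a stress-response gene, changed by -1.40 (DESeq2 adjusted p-value 1.73e-06) and the insulin-like growth factor binding protein Igfbp3 by 1.22 (0.0482). The count was 1 by edgeR and 4 without KO-2 or with the GC trend taken out. Named after their values were seen, Amotl2 (0.00, DESeq2 adjusted p-value 0.998), Axl (-0.23, 0.422) and Ankrd1 (1.41, 0.378) are common YAP readouts. Ankrd1, which heart muscle also expresses, had 393 to 499 normalised counts in WT, 2102 in KO-1 and 194 in KO-2, beside summed cardiac markers of 27159 in KO-1 and 4087 in KO-2, whose part in it was not tested. Its log2 fold change was 2.29 (DESeq2 adjusted p-value 3.33e-22) without KO-2 and -1.15 (0.000488) without KO-1. The share of these targets that passed, 2 of 20, was near the 10.4% of all genes.

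Of 17 core genes of the Hippo pathway, which controls YAP and TAZ, 1 was higher and 16 did not pass. Their median was 0.40, and 10.4% of all tested genes passed. The Hippo gene that passed was Vgll3, a cofactor of TEAD factors. It had 740 ± 24.4 normalised counts in WT and 1432 ± 393 in KO (log2 fold change 0.95, DESeq2 adjusted p-value 0.000166). Leaving out WT-3 raised the count to 5 and leaving out KO-1 to 3. Yap1 itself and Wwtr1, which encodes TAZ, both named after their values were seen, had changes of 0.13 (DESeq2 adjusted p-value 0.791) and 0.51 (0.0619). Tead1, also named after its values were seen, had normalised counts of 192 to 592 in WT and 294 in KO-1 but 3508 in KO-2, so its estimate of 2.55 (DESeq2 adjusted p-value 0.109) came from 1 library, and it was -0.13 (0.941) without KO-2 and 3.44 (0.000571) without KO-1.

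Of 17 receptors and binding partners of CCN proteins, 5 were lower, 4 were higher and 8 did not pass, where 10.4% of all tested genes passed. Their median was 0.03 over the 16 with a mean of at least 10. Without KO-2 the count that passed was 5 in place of 9. The lower genes included the αv-partner integrin Itgb5 (log2 fold change -0.95, DESeq2 adjusted p-value 5.19e-05), the fibronectin receptor chain Itga5 (-0.69), the heparan sulfate proteoglycan Sdc4 (-0.64) and Itgb3 (-0.56), which is on the TGF-β response list too. The small proteoglycan Bgn was also lower (-0.70, DESeq2 adjusted p-value 0.0384), with 74905 normalised counts in KO-1 and 141525 in KO-2, and did not pass without KO-1 (-0.31, DESeq2 adjusted p-value 0.239). The higher genes were Itgam (1.80) and Itgb2 (1.42), chains of a leukocyte integrin, the laminin receptor chain Itga6 (2.23) and Notch1 (0.64). By edgeR 6 of the 17 passed, without Itgb3, Bgn and Notch1 (edgeR adjusted p-values 0.0722, 0.133 and 0.0856). WT means of Itgam, Itgb2 and Itga6 were low, at 139, 144 and 42.4 normalised counts, beside 18116 for Itgb5. Macrophage markers moved with the leukocyte integrin: 7 of 8 were higher, and their summed level was 8545 to 10387 in WT, 14582 in KO-1 and 17163 in KO-2. Endothelial markers summed to 12730 to 22887 in WT and to 32431 and 31378 in KO-1 and KO-2, with 4 of 8 higher. Their part in these results was not tested.

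Of 15 immediate early genes, the class in which Ccn1 was first described, 4 were lower, 1 was higher and 10 did not pass. Their median was -0.69, and 10.4% of all tested genes passed. Nr4a1 (log2 fold change -1.55, DESeq2 adjusted p-value 2.02e-08), Fosb (-1.62), Ier3 (-1.02) and Atf3 (-0.89), all encoding rapid-response factors, were lower, and Myc was higher (1.19, DESeq2 adjusted p-value 0.0194). By edgeR 2 of the 15 passed. Within each group many of these genes were highest in the same library as Ccn1. Of the 15, 11 were highest of the WT libraries in WT-1 (27.5% of all tested genes) and 10 were higher in KO-2 than in KO-1 (48% of all tested genes). Both KO libraries lay outside the WT range on the same side for Ccn1, as for 34.3% of all tested genes and for 6 of these 15. Their summed normalised counts were 47418, 34189, 25695 and 27462 in the WT libraries in order, 17667 in KO-1 and 25513 in KO-2. Fos, named after its values were seen, had 3157 normalised counts in WT-1, from 636 to 1236 in WT-2 to WT-4, 305 in KO-1 and 1069 in KO-2. Without WT-1 the log2 fold change of Ccn1 was -1.19 and it still passed. The part of the immediate early genes' spread between libraries in the Ccn1 result was not tested.

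Of 12 Wnt target genes, listed because Ccn4 was named for Wnt, 1 was higher and 11 did not pass. Their median was 0.46 over the 7 with a mean of at least 10, and 10.4% of all tested genes passed. The Wnt target that passed, Lef1, had 0 to 2.20 normalised counts in WT, 6.83 in KO-1 and 29.5 in KO-2 (DESeq2 adjusted p-value 0.0477). It no longer passed when any single library was left out. Axin2, the common Wnt readout and named after its values were seen, stood at 0.37 (DESeq2 adjusted p-value 0.523).

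**Figure D5:**
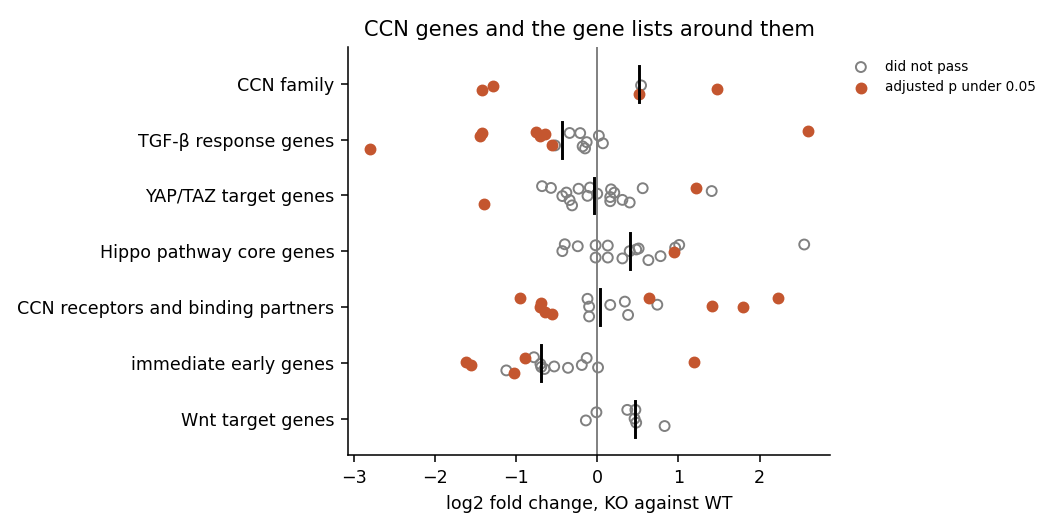
Log2 fold change in KO against WT (horizontal axis) of the CCN genes and of the genes of 6 lists whose mean normalised count reached 10, filled where the DESeq2 adjusted p-value was under 0.05, with a black bar at the median of each list. The TGF-β response and immediate early lists lie mostly left of 0, at medians of -0.43 and -0.69, and the YAP/TAZ targets are spread around -0.04.

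The genes whose pattern over the 6 libraries was most like that of each member were found by Pearson's r of log2(normalised count + 1) among 11446 genes with a mean of at least 100, as a description over libraries that share the group difference. For Ccn1 they were Ier3 (r = 0.996), Dhdds (0.995) and Flt3l (0.995), with 97 genes above 0.95. For Ccn2 they were Ext2 (0.990), Mepce (0.990) and Rab31 (0.989), and for Ccn3 Nifk (0.998), Sp3 (0.996) and Synj2bp (0.996). For Ccn4 they were Camk2d (0.995), Aldh5a1 (0.993) and the predicted gene Gm10093 (0.992), which rose from 15.6 to 345 mean normalised counts. Gm10093 reached the required mean of 100 only through the KO libraries. Ccn5 had the weakest likeness, with Fam189a2 (0.982), Ckb (0.978) and Dync2li1 (0.974), and 14 genes above 0.95. None of the top genes of one member was a top gene of another. Between members, r was 0.69 for Ccn1 and Ccn2, -0.86 for Ccn1 and Ccn3, -0.87 for Ccn2 and Ccn3, and 0.69 for Ccn3 and Ccn4 (n = 6 libraries).

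On either side of each member, the nearest annotated gene that received an adjusted p-value and did not overlap the member was also read. These genes were named after their values were seen. Gm17501, a long noncoding RNA whose span lies 0.331 kb from that of Ccn1 on the other strand, was lower too (log2 fold change -0.68, DESeq2 adjusted p-value 0.0227). Enpp1, 39.2 kb from Ccn2, stood at -1.05 (DESeq2 adjusted p-value 1.51e-06), Enpp2, 84.9 kb from Ccn3, at 1.36 (1.12e-06) and Ndrg1, 6.12 kb from Ccn4, at 0.73 (7.63e-05). These 4 had the sign of the member beside them, and 10.4% of all tested genes passed. Whether neighbours share a sign more often than other genes was not tested. On the other side of Ccn2, Moxd1 at 292.7 kb had the opposite sign (2.75, DESeq2 adjusted p-value 0.0348). Its WT mean was low, at 7.61 normalised counts. Znhit6 beside Ccn1 (-0.24, DESeq2 adjusted p-value 0.682), Mal2 beside Ccn3 (1.75, 0.682), Tg beside Ccn4 (1.44, 0.24) and the neighbours of Ccn5, Ada (0.35, 0.562) and Ywhab (-0.02, 0.952), did not pass.

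Markers of further cell types of the fixed list were read beside these results. Fibroblast markers summed to 29777 to 35801 in WT, 42385 in KO-1 and 35829 in KO-2. Of these, 2 of 8 were higher, Lum (2176 to 3088 normalised counts in WT, 5433 in KO-1 and 5035 in KO-2) and Dpt (log2 fold change 0.57). The others did not pass, with log2 fold changes from -0.48 (Clec3b) to 0.42 (Pdgfra). KO-1 was the higher of the KO libraries for the fibroblast sum and for Ccn5. It was also the higher for the cardiac muscle, skeletal muscle, Schwann cell and endothelial sums. Among all tested genes, 48% were higher in KO-2 than in KO-1. Mesothelial markers, 6 of 6 of them higher, summed to 228 to 451 in WT, 899 in KO-1 and 2460 in KO-2. Chondrocyte markers summed to 2781 to 3439 in WT and to 2481 and 3209 in KO-1 and KO-2, with Acan lower (-2.39), Chad higher (4.40) and Cnmd at 0 in every WT library. Skeletal muscle markers summed to 203 to 277 in WT, 967 in KO-1 and 361 in KO-2, with 1 of 7 higher, Myh1 at 0 in all libraries and Myh4 at 0 in KO. Schwann cell markers summed to 1071 to 1167 in WT and to 1302 and 1132 in KO-1 and KO-2, and lymphocyte markers to 29.6 to 74.7 in WT and to 85.7 and 355 in KO-1 and KO-2. The part of these cells in the CCN values was not tested.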

How the data were processed

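Whole thoracic aortas of 4 WT and 2 KO mice were sequenced. According to the study's methods and submitters' notes, the authors trimmed reads with Trim Galore, mapped them to GRCm38 (mm10) with HISAT2 and quantified genes with StringTie on GENCODE M15. The authors deposited estimated counts for each gene, whole numbers already and not scaled for depth. How they were rounded, and whether counting used strand, is not given in the sources used here. Gene positions came from GENCODE M21 (52489 identifiers matched without version, 147 did not) and the promoter from RefSeq on GRCm38.p6.

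DESeq2 1.42.0 in R 4.3.3 compared KO with WT over all genes (a Wald test on group alone, its own size factors and filtering, Benjamini-Hochberg adjustment), the tool named by the study. Genes passed at an adjusted p-value under 0.05 and were called when the change also exceeded 2-fold. edgeR 4.0.16 (quasi-likelihood test) was the alternative test. Ratios between members were tested by exact permutation over libraries with a pseudocount of 0.5, which was also used for changes of single libraries. The tests were run first on simulated data of this design, where the share of false calls was above the nominal level with both tools and larger with DESeq2, so DESeq2 calls near the threshold are uncertain and edgeR values are given beside the members that passed. Total counts per library ran from 19650983 to 28860598. Ccn4, the lowest member, had at least 177 counts in every library, so counting error (up to 7.52%) was below the spread between WT libraries (19.9%), though not below that between the KO libraries.

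The labels do not say that the libraries of a group came from separate litters or preparations, so p-values measure the spread between these libraries. They give no batch. The members and lists were chosen with earlier results of these data known. Named genes were the family, Tgfbr1 and Tgfbr2, up to 4 lower and 4 higher genes of each list by smallest adjusted p-value under 0.05, the 3 genes most like each member, and cell type markers, except that not every gene this selects is reported here. Bgn and genes said to be named after their values were seen fall outside this rule.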

Additional observations from a re-analysis of the deposited data

Results flagged for a closer look

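Within the WT libraries, 2 of 30 sets of values held a library that stood apart by Dixon's test at the 95% level, where chance gives about 1.5. The log2 ratio of Ccn2 to Ccn4 was 7.91 in WT-4 and between 7.34 and 7.40 in the other WT libraries. Both KO values, 5.02 and 4.46, lay below all 4. The summed level of the smooth muscle markers was 1139709 in WT-3 and between 968755 and 997140 in the other WT libraries. WT-3 was also the WT library with the highest Ccn3, at 30677 normalised counts.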

How the results depend on the processing

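In 17 alternative fits, Ccn1, Ccn2 and Ccn4 kept direction and call in 16, all but the test against a 2-fold change, where no member passed (0 members, adjusted p-value 1 for each; log2 fold changes -1.42, -1.28, 0.52 and 1.47 for Ccn1 to Ccn4). Ccn3 lost its call under edgeR (0.50), edgeR without a filter (0.52), no independent filtering (0.52) and with the GC trend taken out (0.40). Ccn5 passed with the GC trend taken out (0.74, DESeq2 adjusted p-value 0.0345). Without single libraries, log2 fold changes ran from -1.91 to -1.05 for Ccn1, -1.60 to -1.01 for Ccn2, 0.45 to 0.63 for Ccn3, 1.38 to 1.61 for Ccn4 and 0.03 to 0.92 for Ccn5, and 3 to 4 members passed.

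Replicate numbers are shared between groups as numbers only, and deviations of same-numbered libraries correlated at -0.099 (number 1) and 0.009 (number 2). KO-1 and KO-2 deviate from their own mean by exact opposites, so these 2 values are not independent. With the replicate block Ccn3 stood at 0.69 (DESeq2 adjusted p-value 0.114), 561 genes were called in place of 962, and 4 TGF-β response genes, 1 YAP/TAZ target, 3 receptors and 0 Wnt targets passed. Calls of Ccn1, Ccn2 and Ccn4 did not change.

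All genes called numbered 633 by edgeR, 114 in the test against 2-fold, and 636 (without KO-2) to 1284 without single libraries. The share of calls that were higher was 62.8%, and 48.1% without KO-2, 54.4% with the block and 56.1% in the test against 2-fold. Passing genes in that test were 2 TGF-β response genes and 0 of the YAP/TAZ, Hippo, receptor, immediate early and Wnt lists. YAP/TAZ targets numbered 1 by edgeR with or without a filter and without independent filtering, and 4 with the GC trend taken out. Hippo genes numbered 2 with total counts as scaling, 3 with a mean count of at least 10 and 3 with the exon length trend taken out. By edgeR, immediate early genes numbered 2 with or without a filter, and receptors 5 without one. Wnt targets numbered 0 by edgeR with or without a filter, total counts, a mean count of at least 10, no independent filtering, and the GC and length trends. Without single libraries the ranges were 6 to 10 TGF-β response genes, 1 to 4 YAP/TAZ targets, 1 to 5 Hippo genes, 5 to 9 receptors, 4 to 5 immediate early genes and 0 Wnt targets. The log2 difference of the ratio of Ccn1 to Ccn2 turned to 0.09 without WT-1 and 0.57 without KO-1, and that of Ccn3 to Ccn5 to -0.04 without WT-1, -0.15 without WT-2 and -0.38 without KO-2. The ranges were -0.88 to 0.57 and -0.38 to 0.46. The cause was not tested for any of these. With 2 KO libraries, the spread of that group is poorly known.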
